A study of Rattus norvegicus with 12 samples.

Results

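The liver of obese rats fed a mushroom-derived supplement was examined for 9 genes of the NF-kB system. They are the 5 NF-kB subunit genes Relb, Nfkb2, Rela, Rel and Nfkb1, the inhibitor genes Nfkbia and Nfkbie, and the genes Birc2 and Birc3, which encode ubiquitin ligases of the pathway. They were taken from a list of 10 gene names, as array features whose annotation names exactly 1 gene, and 9 of the 10 were found among 18166 such genes. Tnfaip3, the remaining name, was not analysed here. Where a gene has several transcript clusters (the array's probe groups for a gene) the brightest was to be used, but each of the 9 has only 1, so no signal entered the choice of features. The list of names, however, was chosen by reference to the PSC against control values of these same arrays, in which the falls of Relb and Birc3 were already known. Differences between the diets are therefore given as a description of the members and support nothing further.

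NF-kB is a family of dimeric transcription factors that is held in the cytoplasm until a signal releases it. In the canonical pathway, receptors for tumour necrosis factor, interleukin-1 or microbial products activate the IKK complex, which marks the inhibitor IkB for destruction and frees dimers of RelA or c-Rel with p50. In the noncanonical pathway, a smaller set of receptors stabilises the kinase NIK, which leads to processing of p100 to p52 and to active RelB and p52 dimers. The cIAP proteins encoded by Birc2 and Birc3 keep NIK low in resting cells and also take part in canonical signalling. In liver both pathways are known from hepatocytes, macrophages and other cells during inflammation and injury. Several of these genes are themselves NF-kB targets, so that the system feeds back on itself.

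Affymetrix Rat Gene 2.0 ST arrays were hybridised with liver RNA of 6 rats on a diet with 5% PSC, the labels' name for the supplement, and 6 rats on a control diet without it, of comparable energy and nutrient content. All 12 were male obese Zucker rats, homozygous for the fa allele of the leptin receptor gene (fa/fa, Crl:ZUC-Leprfa), 5 to 6 weeks old at the start and killed on day 29 after 4 weeks of feeding. By its title, the study asked what an oyster mushroom made by biotechnology does to the liver. There were no lean rats among them, rats shared cages in groups of 2, and it is not known which of these rats were cage mates.

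The deposited values are log2 signals, and array medians lay between 4.71 and 4.85. Hepatocyte markers were bright on every array: Ttr, which encodes transthyretin, averaged 12.69 ± 0.04 in PSC-fed rats and 12.60 ± 0.06 in controls (mean log2 signal ± SD, n = 6 each). PSC replicates 2 and 5 stood highest among the arrays on the second principal component of all genes, at 21.2 and 11.7, and had the highest array medians, 4.85 and 4.82. The number of arrays limits the precision. A piece of liver mixes cell types, so that fewer cells of a type and less RNA per cell cannot be told apart.

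Short stretches of 4 promoters are shown because these members carry the letters of a kappaB motif, the DNA sequence that NF-kB dimers bind, next to their start. The RefSeq promoter table (build GRCr8), which covers 250 bases before to 50 bases after a gene's start, held 7 of the 9 members, Relb and Birc3 not among them. The motif GGGNNTTTCC was searched on both strands. It was present in 4 of the 7 members' promoters and in 1.51% of the promoters of all 27457 genes of the table, taking each gene's first entry. In each line the capitals mark the matching letters, read 5′ to 3′ on the gene's own strand.
Nfkb2: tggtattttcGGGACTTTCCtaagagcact
Nfkb1: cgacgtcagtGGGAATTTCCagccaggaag
Nfkbia: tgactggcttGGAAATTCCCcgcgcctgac
Rel: gtaggcagcgGGAAATCCCCccccgttccg
The Nfkb2 stretch lies at chr1:255108344-255108373 on the plus strand, with the motif centred 15 bases before the start. The Nfkb1 stretch lies at chr2:226805440-226805469 on the minus strand, with the motif centred 8 bases after the start. The Nfkbia stretch (chr6:78597084-78597113, minus strand) holds it 26 bases before the start and the Rel stretch (chr14:101922000-101922029, minus strand) 76 bases before it. In Nfkbia and Rel the match is on the opposite strand, so the capitals are its reverse complement. A looser form, GGGNNNNNCC, which includes every match of the first, occurred in 6 of the 7 members' promoters and in 48.5% of all promoters. Several of the members are known NF-kB targets, so these shares are a description and not a test. A match describes letters in this window, and binding was not measured.

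The noncanonical subunit gene Relb and the ligase gene Birc3 fell in PSC-fed rats, to 75.6% and 77.8% of the control level. No member rose, where 0.716% of all genes did. The 2 of 9 members passed an adjusted p of 0.05 in a linear model over all genes (limma, two-sided, Benjamini-Hochberg), while 1.89% of all 18166 genes were lower and 2.6% changed in either direction by the same rule. Nfkb2 and Nfkb1 had negative values that missed the threshold, Rela, Rel and Nfkbia had smaller ones, and Birc2 and Nfkbie had small positive ones. Over the 9 members the median log2 fold change was -0.192, against 0.013 over all genes, and 7 of the 9 values were negative, against 46.1% of all genes. Without adjustment, 5 members had a p below 0.05, all of them lower, where 10.1% of all genes were lower by that rule. For 0 of the 9 members did all 6 PSC arrays lie below every control, which held for 1.48% of all genes.

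**Figure D1:**
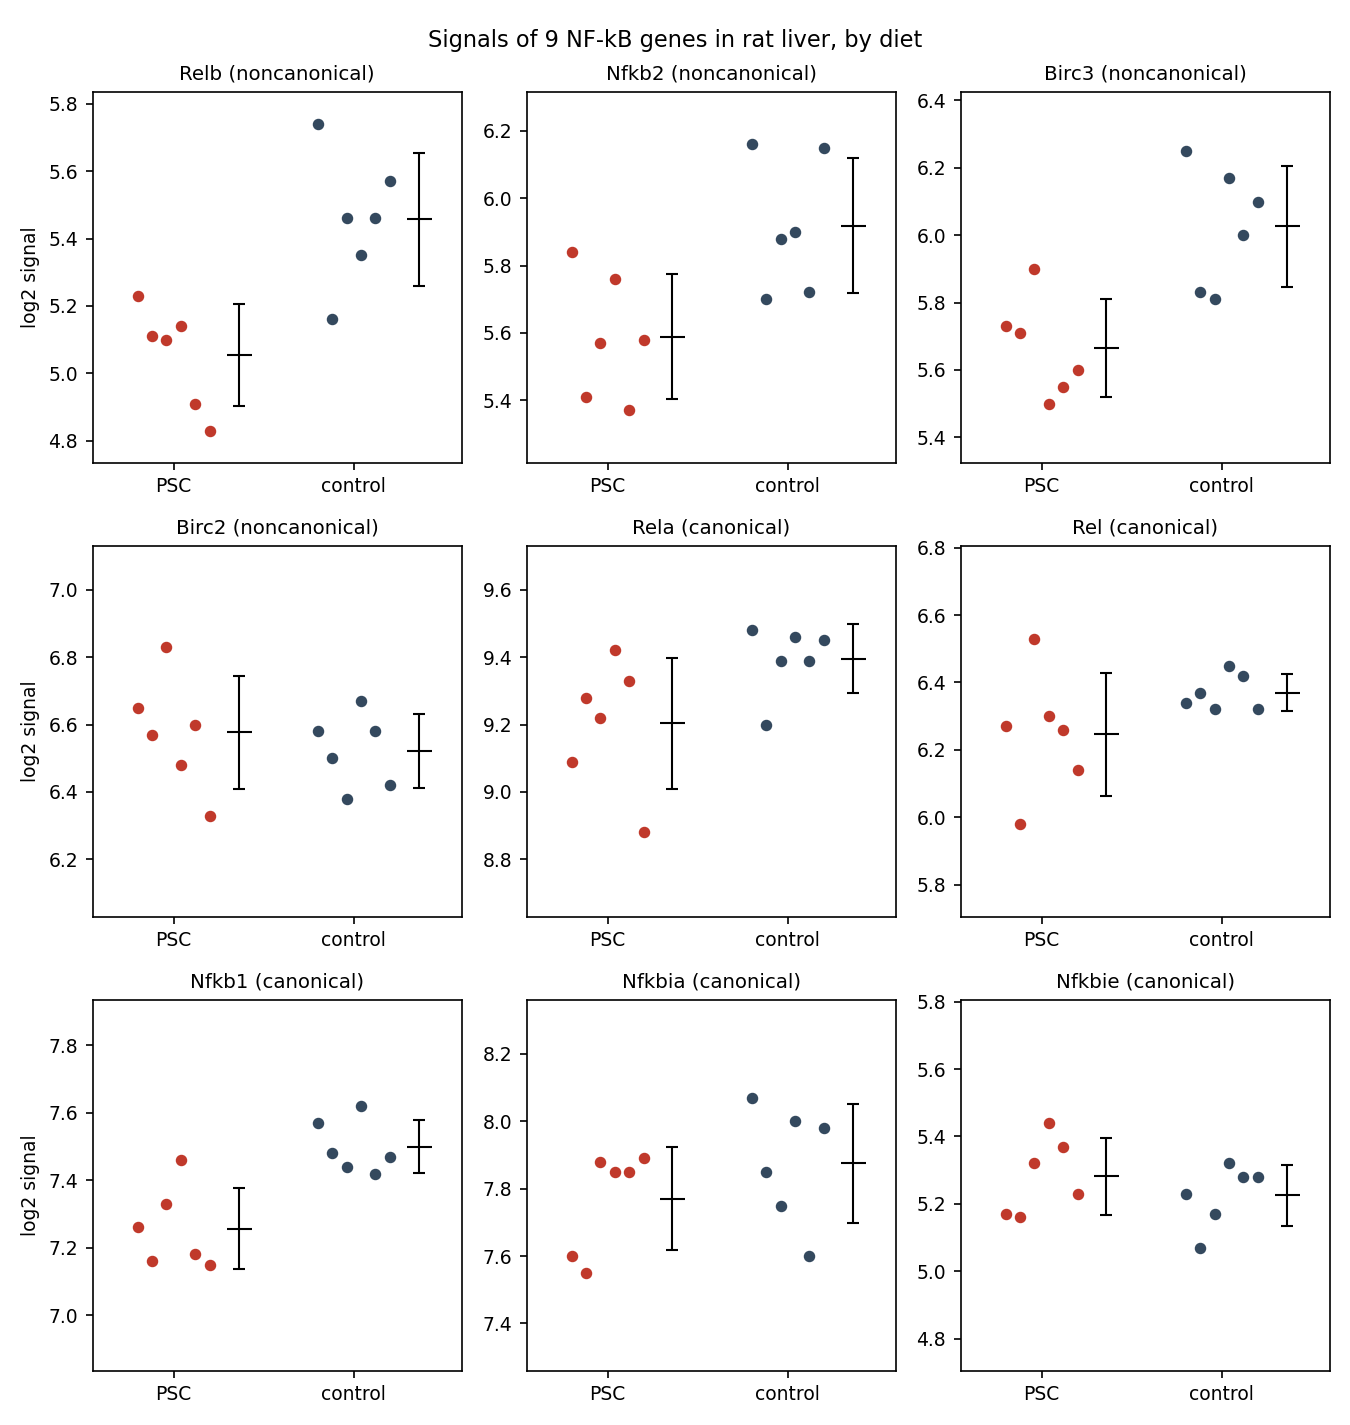
Log2 signals of the 9 genes on each array, with PSC-fed rats on the left and controls on the right of each panel. Each point is 1 rat, ordered by replicate number, the bar is the mean ± SD (n = 6), and every panel spans the same height in log2 units. In Relb, Birc3, Nfkb1 and Rel, 5 of the 6 PSC points lie below every control, and the remaining Rel point lies above them all. In Birc2 and Nfkbie the diets lie across each other.

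Relb encodes RelB, the subunit that defines noncanonical NF-kB dimers. Its log2 signal ran from 4.83 over a median of 5.105 to 5.23 in PSC-fed rats, and from 5.16 over a median of 5.46 to 5.74 in controls. Only PSC replicate 1, at 5.23, reached into the range of the controls, above control replicate 2 at 5.16. Relb averaged 5.05 ± 0.15 in PSC-fed rats and 5.46 ± 0.20 in controls (SD, n = 6 each), a log2 fold change of -0.40 (SE 0.094, 95% interval -0.604 to -0.203, limma adjusted p = 0.0375). Its signal lay near the middle of the array, where the median gene averaged 5.33.

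The call of Relb lay near the threshold and could be lost with 1 array fewer, while its log2 fold change kept its sign. With any 1 array left out the log2 fold change lay between -0.463 and -0.347, and the adjusted p between 0.0157 and 0.0827. Relb stayed past the threshold without control replicate 2, PSC replicate 1 or PSC replicate 4, and missed it without any of the other 9 arrays. Without control replicate 3 or control replicate 5 it missed at an unchanged log2 fold change of -0.403.

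Nfkb2 encodes p100, which is both an inhibitor of RelB and the precursor of its partner p52. Its log2 signal ran from 5.37 over a median of 5.575 to 5.84 in PSC-fed rats, and from 5.70 over a median of 5.89 to 6.16 in controls. All 6 PSC arrays lay below the control median, and 4 of them below every control. PSC replicates 1 and 4, at 5.84 and 5.76, were within the control range. The log2 fold change was -0.33 (SE 0.102, 95% interval -0.547 to -0.113), which did not pass over all genes (limma adjusted p = 0.0946).

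Birc3 encodes cIAP2, a ubiquitin ligase that is induced by NF-kB and acts on NIK and on receptor complexes. It lay between 5.50 and 5.90 in PSC-fed rats, with a median of 5.655, and between 5.81 and 6.25 in controls, with a median of 6.05. Only PSC replicate 3, at 5.90, overlapped with the controls, where replicates 2 and 3 had 5.83 and 5.81. Birc3 averaged 5.66 ± 0.15 in PSC-fed rats and 6.03 ± 0.18 in controls (SD, n = 6 each), a log2 fold change of -0.36 (SE 0.089, 95% interval -0.552 to -0.171, limma adjusted p = 0.0454).

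With 1 array left out the value of Birc3 lay between -0.409 and -0.317 and its adjusted p between 0.0326 and 0.106. It passed without control replicate 2, control replicate 3 or PSC replicate 3 and not without any of the other 9. Without PSC replicates 2 and 5 together neither gene passed, with adjusted p of 0.113 for Relb at -0.382 and 0.134 for Birc3 at -0.344.

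Birc2 encodes cIAP1, the close relative of cIAP2, and is the neighbour of Birc3 on rat chromosome 8. It lay between 6.33 and 6.83 in PSC-fed rats and between 6.38 and 6.67 in controls, so that the diets overlapped almost fully. Its log2 fold change was 0.055 (SE 0.080, 95% interval -0.116 to 0.226, limma adjusted p = 0.743). The lower end of that interval does not reach the value of Birc3.

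Among the canonical subunits, Nfkb1, which encodes p105 and its product p50, came nearest to the threshold. Its log2 signal ran from 7.15 over a median of 7.22 to 7.46 in PSC-fed rats, and from 7.42 over a median of 7.475 to 7.62 in controls. PSC replicate 4, at 7.46, was the only array of its diet within the range of the controls. The log2 fold change of -0.24 (SE 0.065, 95% interval -0.383 to -0.104) missed the threshold at an adjusted p of 0.0607 in limma. Without PSC replicate 4 it was -0.284 with an adjusted p of 0.0231.

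Rela encodes the main activating subunit of the canonical pathway. It ran from 8.88 over a median of 9.25 to 9.42 in PSC-fed rats, and from 9.20 over a median of 9.42 to 9.48 in controls. PSC replicates 1 and 6, at 9.09 and 8.88, lay below every control and the other 4 did not. Its log2 fold change was -0.19 (SE 0.086, 95% interval -0.374 to -0.009, limma adjusted p = 0.24).

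Rel encodes c-Rel, a subunit best known from lymphocytes and other immune cells. It spread over 5.98 to 6.53 in PSC-fed rats and kept to 6.32 to 6.45 in controls. In PSC-fed rats 5 arrays lay below every control and replicate 3 lay above all of them. The log2 fold change was -0.12 (SE 0.078, 95% interval -0.289 to 0.042, limma adjusted p = 0.407).

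The inhibitor genes did not pass. Nfkbia encodes IkB-alpha, which NF-kB induces and which then pulls it back from the nucleus. It lay between 7.55 and 7.89 in PSC-fed rats and between 7.60 and 8.07 in controls, with a log2 fold change of -0.105 (95% interval -0.297 to 0.087, limma adjusted p = 0.55). The 4 PSC arrays other than replicates 1 and 2 lay at 7.85 to 7.89, within the range of the controls. All 6 PSC arrays lay below the control median of 7.915.

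Nfkbie encodes IkB-epsilon, a further inhibitor of RelA and c-Rel dimers. Its range was 5.16 to 5.44 in PSC-fed rats and 5.07 to 5.32 in controls. The log2 fold change was 0.057 (95% interval -0.084 to 0.197, limma adjusted p = 0.671).

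**Figure D2:**
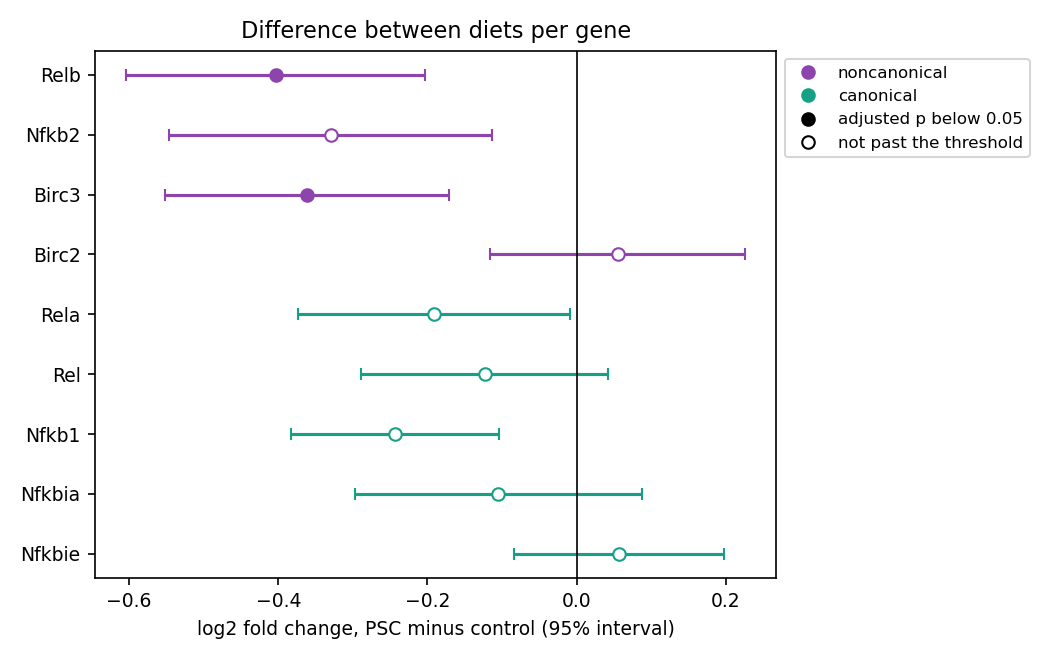
Log2 fold changes (PSC minus control) of the 9 genes with 95% intervals from limma, noncanonical genes above and canonical genes below. Filled points have an adjusted p below 0.05 over all genes. Relb and Birc3 are filled at -0.40 and -0.36, and the intervals of Rel, Nfkbia, Nfkbie and Birc2 include 0.

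The classes were set side by side without a test, because the members were chosen with this contrast known. Of the 4 noncanonical members, Relb, Nfkb2, Birc2 and Birc3, 2 fell and 2 did not pass, with a median log2 fold change of -0.346. Of the 5 canonical members 0 passed at the adjusted threshold, and the median was -0.123. Without adjustment 2 (Nfkb1 and Rela) had a p below 0.05, both lower, where 10.1% of all genes were lower by that rule. Birc2 stood apart within the noncanonical class and Nfkbie within the canonical class, as the only members with positive values. The assignment of Birc2 and Birc3 to the noncanonical class is by their role at NIK, and they serve the canonical pathway too.

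Related genes were also set against each other on the same array. Only the change of such a difference between diets can be read, since its level depends on the probes. Relb minus Rela ran from -4.42 to -3.86 in PSC-fed rats and from -4.11 to -3.74 in controls, a mean of -4.15 ± 0.192 in PSC-fed rats and -3.94 ± 0.129 in controls (SD, n = 6 each). The change of -0.212 left the diets overlapping, with 4 PSC arrays below every control. Nfkb2 minus Nfkb1 averaged -1.67 ± 0.147 in PSC-fed rats and -1.58 ± 0.185 in controls, a change of -0.087 that was smaller than either spread.

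Birc3 minus Birc2 was the only difference of the 3 in which the diets did not overlap. It ran from -1.05 to -0.73 in PSC-fed rats and from -0.67 to -0.32 in controls. The mean was -0.912 ± 0.109 in PSC-fed rats and -0.495 ± 0.142 in controls (SD, n = 6 each), a change of -0.417. The difference is built on Birc3, whose fall was known, and no share of all gene pairs was computed to read it against.

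**Figure D3:**
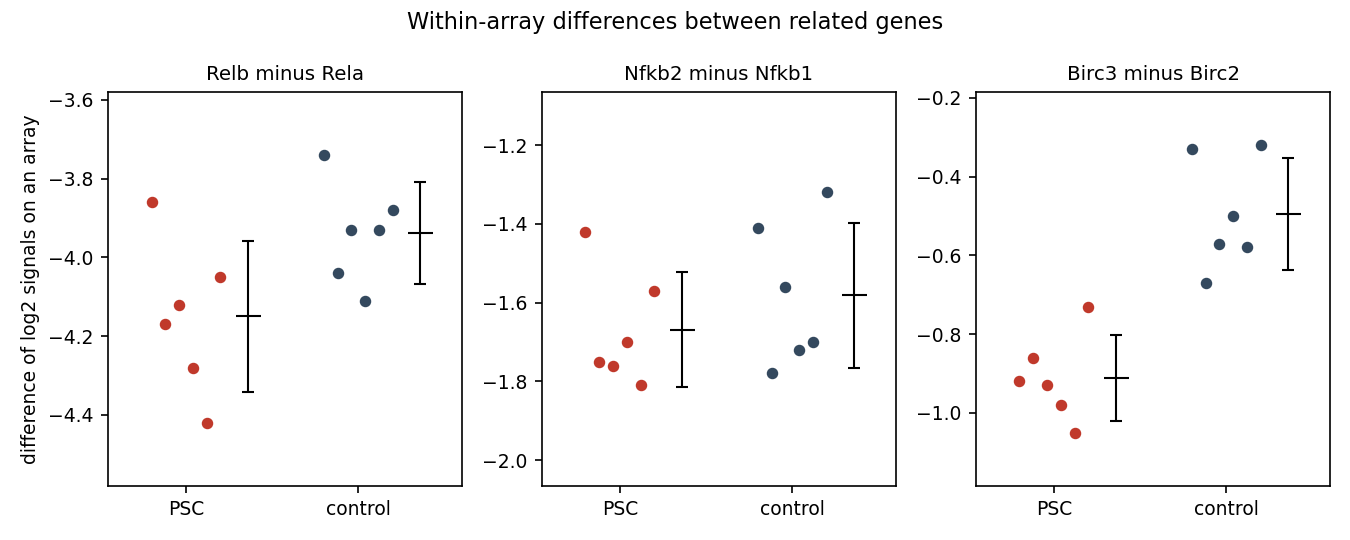
Differences of log2 signals between related genes on the same array, with PSC-fed rats on the left and controls on the right of each panel. Each point is 1 rat, the bar is the mean ± SD (n = 6), and all panels span the same height. The Birc3 minus Birc2 values lie at -0.73 or below in PSC-fed rats and at -0.67 or above in controls.

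Among rats on the same diet the members showed no pair that varied together past the threshold. Each gene's diet mean was removed, all 36 pairs were correlated over the 12 arrays, and p-values came from 100000 permutations within diets with adjustment over the 36 pairs. Correlations were positive in 34 of the 36 pairs, with a median Pearson r of 0.319. No background over pairs of other genes was computed for this, and pairs that share a gene are not independent. Without adjustment 3 pairs had a permutation p below 0.05, and 0 passed after it by Pearson or Spearman correlation.

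The highest value was that of Relb with Nfkb2, whose products bind each other. Pearson r was 0.715 (permutation p = 0.0146, adjusted p = 0.368) and Spearman rho 0.756 (permutation p = 0.00873, adjusted p = 0.208). The sign was the same in both diets, with r of 0.58 in PSC-fed rats and 0.817 in controls. Without control replicates 1 and 2, the arrays farthest from the median of Relb, r was 0.566.

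The other pairs with an unadjusted p below 0.05 did not pass after adjustment either. For Birc2 with Birc3, r was 0.663 (permutation p = 0.0204, adjusted p = 0.368), rho 0.683 (permutation p = 0.0231, adjusted p = 0.208), and r without PSC replicates 3 and 6 was 0.626. Rela with Nfkbie had r of 0.665 (permutation p = 0.0313, adjusted p = 0.376), rho of 0.609 (permutation p = 0.052, adjusted p = 0.375) and 0.667 without PSC replicate 6 and control replicate 2.

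**Figure D4:**
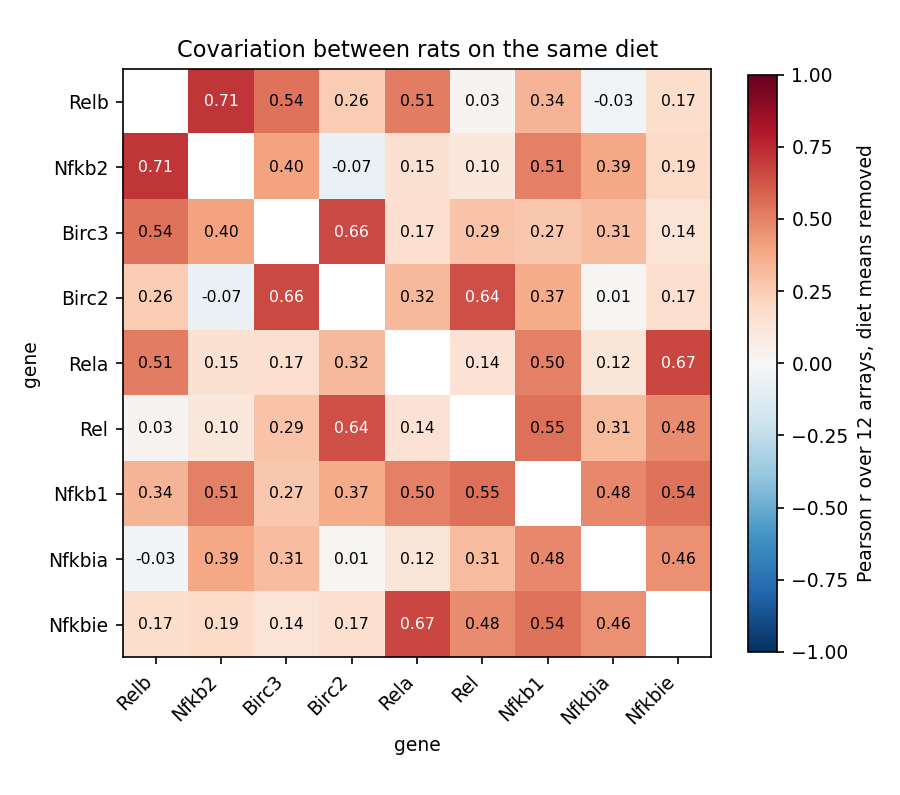
Pearson correlation of each pair of genes over the 12 arrays after removal of the diet means, from blue (negative) to red (positive). Relb with Nfkb2 is highest at 0.71, and the lowest pair, Nfkb2 with Birc2, is at -0.07. No pair passed after adjustment over the 36 pairs.

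Genes outside the list came closer to Relb and Birc3 than any member did. Among 9083 genes brighter than the median gene, those with the highest Pearson r to Relb over the 12 arrays, diet means removed, were Mrps7 (0.908), Fat1 (0.893), Rbm4b (0.877) and Impa1 (0.868). Those nearest to Birc3 were Gpn3 (0.921), Adh7 (0.913), Cpne8 (0.891) and Rrp7a (0.888). Of these 8, only Fat1, an atypical cadherin gene, also changed between diets (log2 fold change -0.405, limma adjusted p = 0.0193). With so many genes searched over 12 arrays, these values are a description.

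The rest of the pathway was read from 4 lists with 79 measured genes in the same fit, of which 3, or 3.8%, passed, against 2.6% of all genes. A share so near that of all genes is not a result about the pathway, and the genes below are described singly. Among ligands, receptors and kinases of the noncanonical pathway, 1 of 15 fell and 0 rose, with a median log2 fold change of 0.035. Without adjustment 6 of the 15 had a p below 0.05, 2 lower and 4 higher. Over all 18166 genes 3470 did, 1831 lower and 1639 higher, and the unadjusted counts of the lists below were not tested against this. The gene that fell was Tnfrsf12a, the receptor for TWEAK and an activator of the noncanonical pathway. It lay between 5.89 and 6.72 in PSC-fed rats (median 6.33) and between 6.76 and 7.31 in controls (median 6.965), so that the diets did not overlap. All PSC arrays lay below every control in 1.48% of all genes. Tnfrsf12a, and Ikbkb, Bcl3 and Cxcl1 below, are named for their small p, so their separation is no further result. Its log2 fold change was -0.74 (SE 0.135, limma adjusted p = 0.0133).

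Tnfrsf12a passed with any 1 array left out. Traf3, the adaptor through which NIK is degraded, had -0.20 (limma adjusted p = 0.11), and Tnfsf11, which encodes the ligand RANKL, had 0.245 (adjusted p = 0.124). The ligand gene of Tnfrsf12a, Tnfsf12, was not analysed here.

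Of 22 genes of canonical ligands, receptors and kinases 0 passed the adjusted threshold in limma, while 5 had an unadjusted p below 0.05, all lower, and the median was -0.016. Ikbkb, the catalytic IKK subunit of the canonical pathway, came nearest. It lay between 7.55 and 7.80 in PSC-fed rats and between 7.82 and 8.0 in controls, without overlap, and its log2 fold change was -0.24 (SE 0.063, limma adjusted p = 0.053). The receptor adaptor gene Tradd had -0.25 (adjusted p = 0.16) and the TNF receptor gene Tnfrsf1b -0.20 (adjusted p = 0.163).

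Among other inhibitors of NF-kB 1 of 14 fell and 0 rose, with a median of -0.106, and 3 had an unadjusted p below 0.05, all lower. The gene was Bcl3, an atypical IkB protein that acts in the nucleus with dimers of p50 or p52. Its place in this list is by its family, and whether it inhibits or activates NF-kB here was not measured. Its log2 signal ran from 5.46 over a median of 6.035 to 6.20 in PSC-fed rats, and from 6.25 over a median of 6.665 to 6.94 in controls, without overlap. The log2 fold change was -0.72 (SE 0.145, limma adjusted p = 0.0228). It missed the threshold without control replicate 1, 4 or 6 or PSC replicate 1. The ligase gene Itch and the A20-binding gene Tnip1 had -0.15 (adjusted p = 0.201) and -0.12 (adjusted p = 0.247).

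Of 28 other NF-kB target genes 1 rose and 0 fell, with a median of -0.062. Without adjustment 9 had a p below 0.05, 7 lower and 2 higher. Cxcl12, a chemokine gene known as a target of noncanonical NF-kB in stromal cells, lay between 8.25 and 8.59 in PSC-fed rats (median 8.42) and between 7.45 and 8.12 in controls (median 8.04). Its log2 fold change was 0.47 (SE 0.109, limma adjusted p = 0.0373). This call was lost without any of control replicates 1, 3, 4 or 5 or PSC replicates 1, 2, 5 or 6. Other genes of the list known as such targets are given here after their values were seen, and none passed. The chemokine gene Cxcl13 had a log2 fold change of -0.78 (limma adjusted p = 0.109), lower in PSC-fed rats, and passed without PSC replicate 4 (adjusted p = 0.0106). Ccl19 had 0.0033, Ccl21 0.05 and the adhesion gene Madcam1 0.10. Cxcl1, a neutrophil chemokine gene of the canonical pathway, had -0.54 (adjusted p = 0.0599) with all 6 PSC arrays below every control, and Ccl5, a chemokine gene of lymphocytes, had 0.43 (adjusted p = 0.065).

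**Figure D5:**
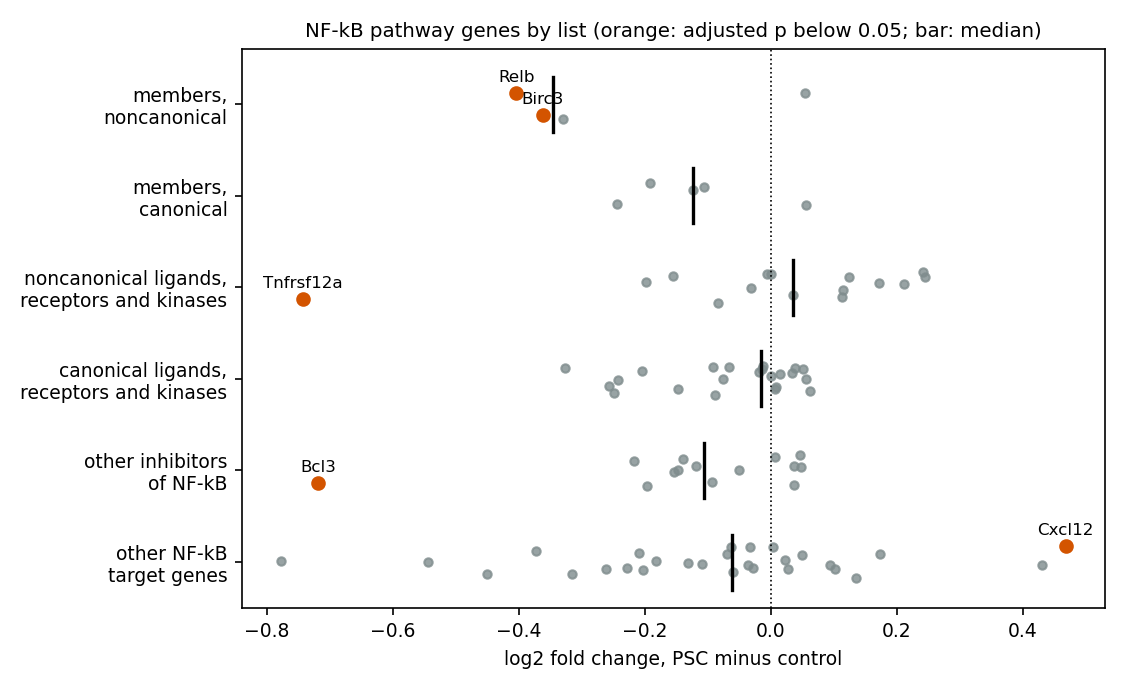
Log2 fold changes (PSC minus control) of the members and of 4 further lists of NF-kB pathway genes, 1 point per gene, with a black bar at the list's median. Orange points have an adjusted p below 0.05 over all genes. Tnfrsf12a at -0.74, Bcl3 at -0.72 and Cxcl12 at 0.47 are the only such points outside the members.

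Some markers of other liver cell types changed between the diets as well, where 1.89% of all genes were lower and 0.716% higher. Of 9 measured stellate cell markers 4 fell (Dcn, Col1a2, Tagln and Col3a1). Their mean signal after centring each gene ran from -0.295 to 0.082 in PSC-fed rats and from 0.082 to 0.368 in controls. Of 7 markers of recruited and lipid-associated macrophages 2 fell (Fabp4 and Mmp12), and 4 log2 fold changes were negative and 3 positive, the highest 0.345. The mean of these markers ran from -0.581 to 0.136 in PSC-fed rats and from -0.137 to 0.527 in controls. On both scores PSC replicate 4 stood highest of its diet. It was also the highest PSC array for Rela, Nfkb1 and Nfkbie, and the second highest for Relb, Nfkb2 and Rel. For Birc2 it was the second lowest, for Birc3 the lowest, and for Nfkbia it was level with PSC replicate 5 at 7.85. This array lay nearest to the controls over all genes. On the first principal component (27.2% of the variance) it was at -1.57, the other PSC arrays at 6.68 to 16.6 and the controls at -18.7 to -4.34.

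Markers of Kupffer cells, the resident macrophages, went the other way, with 1 of 9 higher (Cd163) and 8 of 9 log2 fold changes positive. Their mean ran from -0.016 to 0.388 in PSC-fed rats and from -0.927 to 0.075 in controls. Control replicate 1 was the lowest, and the next control was at -0.385. For Cd163 that array lay at 4.96 and the other controls at 6.04 to 6.45. Of 8 markers of T and NK cells 1 rose (Nkg7), 5 log2 fold changes were positive and 3 negative with a median of 0.039, and the scores were -0.064 to 0.147 in PSC-fed rats and -0.221 to 0.031 in controls. Of 3 B cell markers 0 passed in limma and 3 had an unadjusted p below 0.05. All 6 PSC arrays scored above every control (-0.036 to 0.3 in PSC-fed rats, -0.14 to -0.073 in controls). No share of other gene sets was computed to read this score against. Of 5 dendritic cell markers, a cell type in which RelB is known to be prominent, 0 passed, 1 had an unadjusted p below 0.05, and the scores ran from -0.054 to 0.124 in PSC-fed rats and from -0.12 to 0.018 in controls.

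Of 8 hepatocyte, 6 neutrophil, 3 endothelial and 5 bile duct markers 0 passed in limma. Without adjustment 0, 1, 2 and 2 of them had a p below 0.05, where 3470 of all 18166 genes did. The part of these cell types in the values of Relb, Birc3 and the other members was not tested.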

How the data were processed

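The authors deposited log2 signals per transcript cluster. The submitters' processing notes name RMA and Affymetrix Expression Console for them, without versions, filters or detection calls. RMA equalises the arrays at the level of probes and compresses small changes of dim genes. Array medians of the deposited values still lay between 4.71 and 4.85. Centring the arrays on their medians took the log2 fold change of Relb from -0.403 to -0.448 and of Birc2 from 0.055 to 0.01. Genes were named by the platform annotation: 18511 of 30347 clusters have 1 symbol, 575 several and 11261 none in the table used, and 1 cluster per gene, the brightest, left 18166 genes. All 9 members matched RefSeq (GRCr8) by gene number. No filter on low signals was applied.

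Diets, taken from the titles, were compared with limma 3.58.1 in R 4.3.3 (lmFit, eBayes), Benjamini-Hochberg adjusted over all genes, threshold 0.05. The test was checked on simulated data. Correlations and promoter searches used Python 3.11.15, and figures matplotlib 3.10.9. The members, lists and tests were chosen with earlier results of these data known. All members are named. Of each other list the text names genes past the threshold and, for the pathway lists, the 3 with the smallest p; for likeness, the 4 highest correlations. Replicate numbers do not pair the rats by the labels. Alternatives were other features, filters, normalizations, variance models, thresholds and left-out arrays.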

Additional observations from a re-analysis of the deposited data

Results flagged for a closer look

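Rela in control replicate 2 had a log2 signal of 9.20, far below the other controls, the nearest of which lay at 9.39. The gap was 0.679 of the controls' whole range, above Dixon's 95% critical value of 0.625 for 6 samples. It was the only such array among 18 checks of 9 genes in both diets, and chance gives about 5% of such groups. Without that array the log2 fold change of Rela was -0.231, with an adjusted p of 0.168 in limma.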

How the results depend on the processing

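All 9 members kept the sign of their log2 fold change under every alternative tried, while calls near the threshold moved. The alternatives share most of their arrays, so a kept sign says little for values near 0. Birc2 was at 0.004 without PSC replicate 3, and Nfkbie at 0.012 with median centring. The 2 changed members became 0 with every transcript cluster tested, 1 with a further quantile normalization, 3 with a variance trend (the canonical Nfkb1 added, adjusted p = 0.0376) and 4 with a threshold of 0.1 (with Nfkb2 and Nfkb1 added). Leaving out 1 array gave 0 to 2 changed members. Relb and Birc3 passed together only without control replicate 2, and without PSC replicate 4 the 2 were Relb and Nfkb1. No member passed without any of control replicates 1, 4, 5 or 6 or PSC replicates 2, 5 or 6. Without PSC replicates 2 and 5 together, an alternative chosen after seeing the data, there were 0 changed members. The 3 changed genes of the other pathway lists became 7 among genes above the median signal, 6 with median centring, 6 with a variance trend and 7 with a threshold of 0.1, and 1 to 6 with 1 array left out. With the replicate number as a block, 0 members and 0 other pathway genes passed; same-numbered rats correlated at -0.151 to 0.111 in their deviations over all genes and share only a number, and 1 of 6 PSC arrays correlated best with its own number. The fit among genes above the median signal leaves out Relb and Nfkbie, and the 2 members it called were Birc3 and Nfkb1 (adjusted p = 0.027). No member pair passed under any of the 14 alternatives for the correlations (0 pairs in each), of which 12 left out 1 array.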
